A study of Homo sapiens with 12 samples.

Results

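The response to an IRAK inhibitor given alone was read from 6 of the 12 expression arrays of the study, the 3 arrays labelled IRAKi and the 3 labelled Control. Members were taken by their treatment label and paired by cell line, so the lines OCI-LY3, numbered replicate 1, OCI-HBL1, numbered replicate 2, and OCI-LY10, numbered replicate 3, each gave 1 IRAKi and 1 Control array (n = 3 a group). All are established human lines of ABC-DLBCL, the activated B cell-like form of diffuse large B cell lymphoma, and each group holds 1 array of each line with no repeat culture of it. IRAKi cells were given 50 µM of an inhibitor of the kinases IRAK1 and IRAK4, whose chemical identity is not given in the sources used here, and their arrays carry a label time of 6 h. Control arrays carry a label time of 24 h and no further description of what the cells received. Combo cells, labelled 24 h, were given the IRAK inhibitor at 50 µM with CPI203, which blocks the bromodomains by which BET proteins bind acetylated chromatin. CPI203 cells, also labelled 24 h, were given that compound alone at 500 nM. The protocol names 6 h of the IRAK inhibitor and 18 h of CPI203 and does not say which of them was given first. The IRAK inhibitor and the label time differ together between IRAKi and Control, and the part of each in a difference cannot be told apart. Because the replicates are cell lines, p-values measure the spread between these samples.

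IRAK1 and IRAK4 are serine/threonine kinases that bind MYD88, the adaptor of the Toll-like and interleukin-1 receptors, and pass its signal through TRAF6 and the kinase TAK1 to NF-kB. In ABC-DLBCL, NF-kB is chronically active, fed by MYD88 and by the B cell receptor, and the cells depend on it and on the cytokines IL-6 and IL-10 that act back through STAT3. An inhibitor of the kinases acts on protein activity, so the RNA of the pathway's own members need not move with it. The levels below are log2 values of the robust multi-array average (RMA), a change is the IRAKi mean minus the Control mean on that scale (a log2 change of 1 is 2-fold), and each is given with its standard error (SE).

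The arrays had the RNA of the cell type on their labels. All 7 ABC-DLBCL markers passed the filter on low levels, with array means of the marker set between 10.8 and 11.2 in IRAKi cells and between 11.1 and 11.4 in Control cells. The 6 B cell markers with a probe set of their own passed it too, averaging 9.0 to 9.49 in IRAKi cells and 9.44 to 9.64 in Control cells. Of the 6 T cell markers, 2 passed the filter, a log2 level of 4.20, and 1 of 7 myeloid markers did, with set means of 3.82 to 3.95 and 3.65 to 3.83 in IRAKi cells and of 3.74 to 3.89 and 3.66 to 3.76 in Control cells. Low levels above the filter were also read for 3 of 4 NK cell, 3 of 4 epithelial and 2 of 5 fibroblast and endothelium markers, of which the highest averaged 5.34 over the 12 arrays, and for 1 of the 2 erythroid markers with a probe set. The IRAKi and Control arrays of a line correlated at 0.988 (OCI-LY3), 0.989 (OCI-HBL1) and 0.983 (OCI-LY10). The OCI-LY10 IRAKi array stood apart, with the array's non-specific control probe sets at 4.00, against 3.64 to 3.79 on the other 11 arrays. Poly-A RNA spiked into every sample read higher on IRAKi than on Control arrays, by 0.229 ± 0.0389 (SD, n = 3 lines).

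Of 13108 genes tested, 22 passed an adjusted p of 0.05 between IRAKi and Control (0.168%), 15 higher (0.114%) and 7 lower (0.0534%). The lower genes were KLHL14, CD24, LINC00158, ENTPD1, BMF, HSH2D and CLECL1. The higher genes included the complement protease gene C1S, the dynein family gene DNHD1 and the small nucleolar RNA SNORD72. Changes ran between -1.90 and 1.76, and all 22 lay on one side of 0 in every line. That holds for 39.2% of all genes tested. The IRAKi and Control arrays did not overlap for 11 of the 22, against 5.26% of all genes tested. IRAKi was above for 8 of them (2.8% of all genes tested) and below for 3 (2.46%). Without the OCI-LY10 IRAKi array 0 genes passed (1600 at an unadjusted p below 0.05), with adjusted p-values of the 22 between 0.0733 and 0.184, and without OCI-LY3, OCI-HBL1 or OCI-LY10 as a whole 0 passed in each case, with adjusted p-values between 0.148 and 0.397. Scaling to the poly-A spike-ins called 26 genes, 2 higher and 24 lower, of which 8 are among the 22. As these are bulk RNA samples, fewer cells of a kind and less RNA per cell cannot be told apart.

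**Figure D1:**
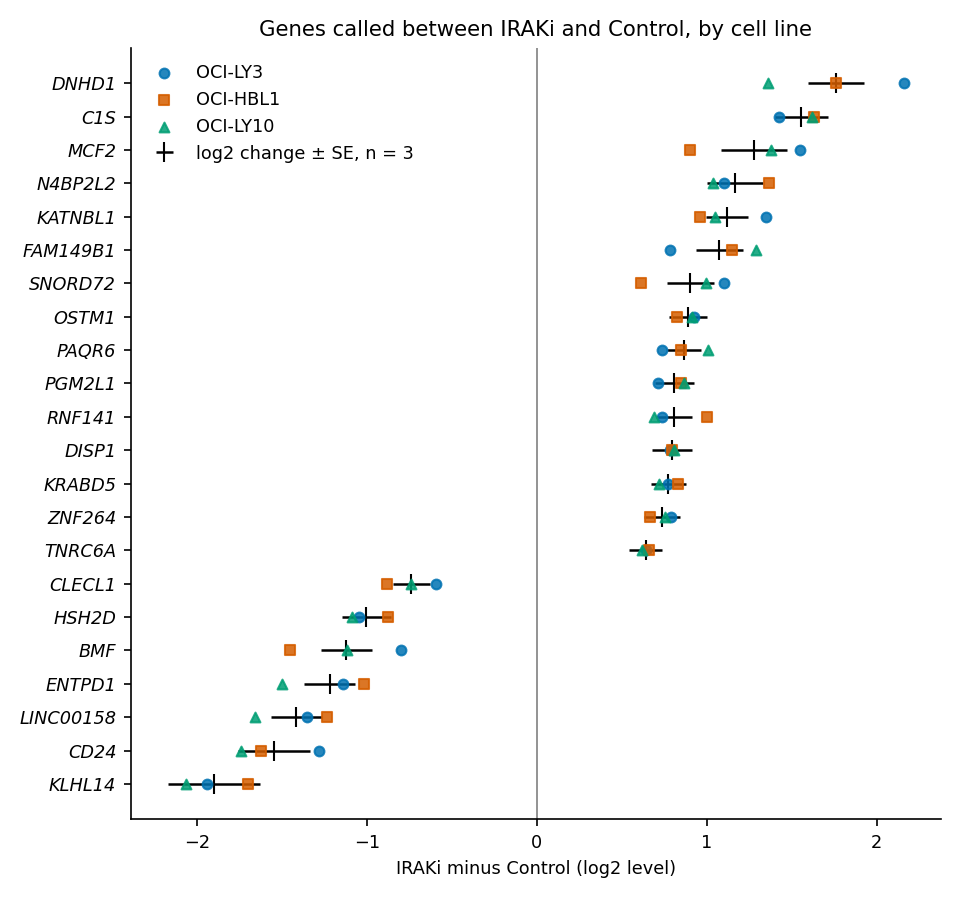
IRAKi minus Control (log2 level) for the 22 genes called, 1 row a gene, with 1 point for each cell line and a cross for the log2 change ± SE (n = 3 lines). DNHD1 and C1S lie furthest to the right and KLHL14 and CD24 furthest to the left, and no gene has points on both sides of 0.

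BMF encodes a BH3-only protein of the BCL2 family, which promotes cell death by binding BCL2 and its relatives. Its level in IRAKi cells was 7.61 (OCI-LY3), 6.69 (OCI-HBL1) and 7.18 (OCI-LY10), against 8.41, 8.14 and 8.29 in Control cells of the same lines. All 3 IRAKi arrays lay below all 3 Control arrays, and the log2 change was -1.12 ± 0.15 (limma, Benjamini-Hochberg adjusted p = 0.0293). The gene has 4 probe sets, and the other pair that passed the filter changed by -0.16 and -0.14, so the fall rests on 1 probe set.

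The promoter of BMF is shown because it holds a match to the kB site, the motif that NF-kB subunits bind, in the reference sequence (RefSeq, GRCh38.p14, chr15:40108830-40109129, minus strand, from 250 bases before the gene's start to 50 after it, read 5′ to 3′ along the gene). Capitals mark the match.
BMF: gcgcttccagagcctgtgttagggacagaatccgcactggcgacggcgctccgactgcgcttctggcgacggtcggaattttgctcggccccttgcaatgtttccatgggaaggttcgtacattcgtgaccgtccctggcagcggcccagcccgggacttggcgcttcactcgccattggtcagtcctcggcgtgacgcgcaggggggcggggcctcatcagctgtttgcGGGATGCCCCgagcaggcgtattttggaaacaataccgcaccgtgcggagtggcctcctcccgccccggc
The motif was searched on both strands and was present in 2 of the 4 promoters matched among the genes called lower and in 0 of the 12 matched among those called higher. These are too few promoters to compare, and BMF, shown for its match, is among the 2. All promoters of that length held it in 10.8% of cases, those of the genes tested in 12.9%, and those of the NF-kB target list in 12 of 29 (41.4%). These are matches of letters and not measured binding. The gene lists were written from general knowledge of each pathway, so a motif share in them is not independent evidence.

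ENTPD1 encodes CD39, the ectoenzyme that breaks down extracellular ATP, and belongs to the ABC-DLBCL signature. It stood at 7.75, 8.62 and 8.02 in IRAKi cells (OCI-LY3, OCI-HBL1, OCI-LY10) and at 8.90, 9.63 and 9.52 in Control cells. The groups did not overlap, and the change was -1.22 ± 0.15 (adjusted p = 0.0285). All 4 probe sets of ENTPD1 were lower in IRAKi cells, with changes between -0.955 and -1.29.

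KLHL14, a Kelch-family adaptor of ubiquitin ligases expressed in B cells, fell most of the genes called. Its level was 6.87, 5.62 and 4.67 in IRAKi cells and 8.82, 7.32 and 6.73 in Control cells, which is 3.74-fold lower on average (log2 change -1.90 ± 0.27, adjusted p = 0.0381). The OCI-LY3 IRAKi level was above the OCI-LY10 Control level, so the groups overlapped although each line fell. A second probe set of KLHL14 past the filter changed by -1.83.

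CD24, a small surface glycoprotein of immature and germinal centre B cells, stood at 6.29, 4.73 and 8.25 in IRAKi cells and at 7.57, 6.35 and 9.99 in Control cells. OCI-LY10 had the highest and OCI-HBL1 the lowest level in both groups, and the change within lines was -1.55 ± 0.21 (adjusted p = 0.0345). CD24 has a single probe set here, of the kind whose probes are shared between transcripts, so near-identical copies of the gene could add to its signal.

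HSH2D, an adaptor with an SH2 domain that acts below lymphocyte receptors, had levels of 7.47, 6.64 and 6.06 in IRAKi cells and 8.52, 7.52 and 7.15 in Control cells, a change of -1.0 ± 0.15 (adjusted p = 0.0399). The probe set tested for HSH2D is of the kind whose probes are shared between transcripts, and its second probe set changed by -0.11. CLECL1, a C-type lectin-like protein of B cells and dendritic cells, stood at 10.30, 8.91 and 10.76 in IRAKi cells and at 10.89, 9.80 and 11.50 in Control cells (-0.74 ± 0.11, adjusted p = 0.0387). LINC00158, a long non-coding RNA, stood at 5.67, 5.79 and 5.20 in IRAKi cells and at 7.02, 7.02 and 6.86 in Control cells, with no overlap (-1.42 ± 0.15, adjusted p = 0.0165).

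**Figure D2:**
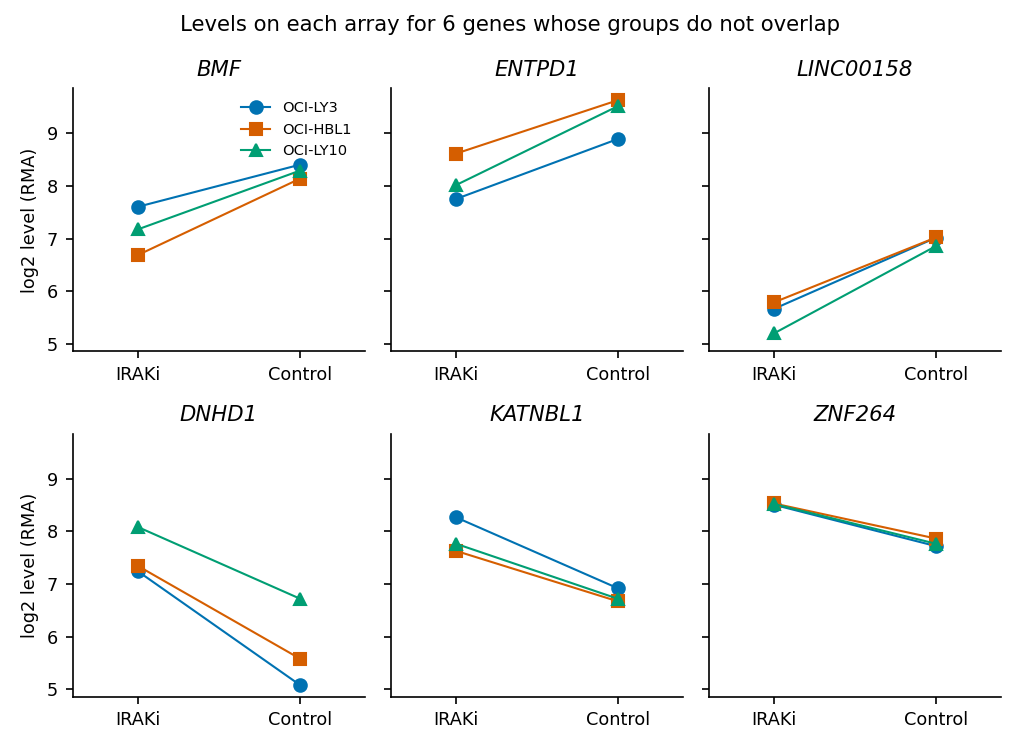
Level (log2, RMA) on each of the 6 arrays for 6 called genes, with IRAKi at the left and Control at the right of each panel and a line joining the arrays of 1 cell line. BMF, ENTPD1 and LINC00158 are lower on all 3 IRAKi arrays than on any Control array, and DNHD1, KATNBL1 and ZNF264 higher.

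Among the genes called higher, DNHD1, a gene of the dynein heavy chain family, changed most. It stood at 7.25, 7.35 and 8.09 in IRAKi cells and at 5.09, 5.59 and 6.73 in Control cells, 3.39-fold higher on average (log2 change 1.76 ± 0.16, adjusted p = 0.0133). Its lowest IRAKi array was above its highest Control array. C1S, the serine protease that starts the classical complement cascade together with C1R, stood at 4.46, 6.17 and 7.89 in IRAKi cells and 3.04, 4.54 and 6.27 in Control cells (1.56 ± 0.16, adjusted p = 0.0133). The lines differed more in C1S than the treatments did, so the groups overlapped, and since the OCI-LY3 Control level was below the filter level its rise may be larger there.

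KATNBL1, a protein that binds the microtubule-severing enzyme katanin, stood at 8.27, 7.63 and 7.77 in IRAKi cells and at 6.92, 6.67 and 6.72 in Control cells, again with no overlap (1.12 ± 0.12, adjusted p = 0.0177). N4BP2L2 reached 8.65, 8.91 and 8.30 in IRAKi cells, against 7.55, 7.55 and 7.26 in Control cells (1.17 ± 0.17, adjusted p = 0.0381). ZNF264, a zinc finger protein of the KRAB family, had 8.51, 8.53 and 8.52 in IRAKi cells and 7.72, 7.87 and 7.77 in Control cells (0.74 ± 0.11, adjusted p = 0.0399). Its other probe set changed by -0.08 but read only 4.28 to 5.04 on these 6 arrays, near the filter level of 4.20. That probe set therefore says little about the rise of ZNF264, which rests on 1 probe set. MCF2, an oncogene, had 5.65, 4.83 and 6.32 in IRAKi cells and 4.10, 3.93 and 4.95 in Control cells (1.28 ± 0.19, adjusted p = 0.0477). The Control levels of MCF2 in OCI-LY3 and OCI-HBL1 were below the filter level.

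The remaining 9 genes called higher changed by between 0.64 and 1.07. FAM149B1 (1.07 ± 0.14), PAQR6, a receptor of the progestin and adipoQ family (0.86 ± 0.10), RNF141, a RING finger protein (0.81 ± 0.11), and KRABD5 (0.77 ± 0.10), had IRAKi arrays all above the Control arrays. OSTM1, a subunit of the lysosomal chloride transporter CLC-7 (0.89 ± 0.11), the small nucleolar RNA SNORD72 (0.90 ± 0.14), PGM2L1, a sugar phosphate synthase (0.81 ± 0.11), DISP1, which releases Hedgehog proteins from cells (0.79 ± 0.12), and TNRC6A, the GW182 protein of miRNA silencing (0.64 ± 0.10), overlapped between the groups. Of the 22 genes, 5 have a single probe set. The other 17 have 44 further probe sets, of which 11 passed an unadjusted p of 0.05 with the same sign, and a further probe set was called in 2 genes, ENTPD1 and KLHL14. Many further probe sets had changes near 0, such as those of DNHD1 (0.13, against 1.76 for the one tested), N4BP2L2 (0.08 and 0.05, against 1.17) and PAQR6 (0.06, 0.11 and 0.27, against 0.86). Those of DNHD1 and PAQR6 read 3.97 to 4.91 on these 6 arrays, near the filter level of 4.20, and those of N4BP2L2 5.30 to 7.01. OSTM1, RNF141, TNRC6A and ZNF264 each had at least 1 past the filter with the opposite sign. Like those of CD24 and HSH2D, the probe sets tested for C1S, MCF2, OSTM1, RNF141 and ZNF264 are of the kind whose probes are shared between transcripts.

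When the spread was estimated with limma's trend and robust options, which let it follow the level of a gene, 220 genes passed (1.68%), 136 higher (1.04%) and 84 lower (0.641%). That set holds all 22. Among the genes it adds, the lowest were CACNA1A, a calcium channel subunit (-1.31 ± 0.26), FJX1 (-1.26 ± 0.24), RAB33A, a small GTPase (-1.19 ± 0.26), OSBPL10, an oxysterol-binding protein (-1.13 ± 0.20), and SIT1, a lymphocyte signalling adaptor (-1.12 ± 0.26). The highest were the neuronal tubulin gene TUBB3 (1.29 ± 0.29), RGS5, a regulator of G protein signalling (1.21 ± 0.23), the Fc receptor-like gene of B cells FCRL5 (1.18 ± 0.19), FBXO3, an F-box subunit of ubiquitin ligases (1.16 ± 0.20), and the cystine transporter gene SLC7A11 (1.13 ± 0.26). In the default fit their adjusted p-values lay between 0.0633 and 0.112, so these 10 are given as values and not as calls.

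IRAK1, the one of the compound's target kinases that was tested, and MYD88, the adaptor above it, passed neither test. IRAK1 stood at 9.86, 9.50 and 9.01 in IRAKi cells and at 9.85, 9.68 and 9.23 in Control cells (-0.13 ± 0.17, adjusted p = 0.766). MYD88 stood at 9.53, 8.76 and 9.64 in IRAKi cells and at 9.76, 9.27 and 9.67 in Control cells (-0.26 ± 0.13, adjusted p = 0.376). IRAK2 changed by 0.18 ± 0.17 and IRAK3, a negative regulator of the family, by 0.21 ± 0.39. TRAF6, the ubiquitin ligase below IRAK1, changed by 0.03 ± 0.14, and MAP3K7, which encodes TAK1, by 0.17 ± 0.11. IRAK4 had no probe set of its own and was not analysed here.

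Across 26 genes of MYD88, IRAK and Toll-like receptor signalling, 0 were called higher and 0 lower, also with trend and robust, and the median change was -0.12, against -0.000878 over all genes tested. At an unadjusted p below 0.05, 4 of the 26 were lower and 0 higher (7.08% and 8.32% of all genes tested). They were TLR10 (-0.61 ± 0.17), the Toll-like receptor chaperone UNC93B1 (-0.45 ± 0.12), the transcription factor IRF5 (-0.60 ± 0.18) and UBE2N (-0.25 ± 0.11), the ubiquitin-conjugating enzyme that works with TRAF6. Their adjusted p-values were between 0.138 and 0.295.

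Of 34 NF-kB target genes, 0 were called in the default fit. With trend and robust 1 was higher, GADD45B, and 1 lower, CD86 (1.04% and 0.641% of all genes tested). At an unadjusted p below 0.05, 5 were lower and 2 higher (14.7% and 5.88%, against 7.08% and 8.32% of all genes tested). In all 3 lines 9 were lower and 7 higher (26.5% and 20.6%, against 19.1% and 20% of all genes tested). The median change was -0.10, and by line it was 0.14 (OCI-LY3), -0.18 (OCI-HBL1) and -0.19 (OCI-LY10), so the lines did not share a sign. CD86, a costimulatory ligand for T cells, stood at 9.80, 8.45 and 7.47 in IRAKi cells and at 10.44, 9.47 and 8.05 in Control cells (-0.75 ± 0.16, adjusted p = 0.0976). CD80, its close relative, changed by -0.72 ± 0.20 and the chemokine gene CCL22 by -0.86 ± 0.33. GADD45B stood at 10.79, 10.12 and 10.70 in IRAKi cells and at 9.97, 9.79 and 10.33 in Control cells (0.51 ± 0.15, adjusted p = 0.161). CCL3, the other gene counted as higher, changed by 1.49 ± 0.63 (adjusted p = 0.302). Its difference was 3.42 in OCI-HBL1, 0.37 in OCI-LY3 and 0.67 in OCI-LY10. The early NF-kB targets NFKBIA (0.05 ± 0.21), NFKBIZ (-0.27 ± 0.26), TNFAIP3 (-0.52 ± 0.31), BCL2A1 (0.22 ± 0.17) and CD83 (0.18 ± 0.20) had changes of less than 2 SE. For NFKBIA the difference was 0.51 (OCI-LY3), -0.63 (OCI-HBL1) and 0.27 (OCI-LY10). No probe set was specific to BIRC3 or CCL4. Of the 23 NF-kB subunits, inhibitors and IKK genes, 0 were called and the median was 0.01. OTULIN (0.44 ± 0.18), a deubiquitinase that restrains NF-kB signalling, and IKBKB (0.39 ± 0.17), which encodes IKK-beta, a catalytic subunit of the kinase that frees NF-kB, passed an unadjusted p of 0.05. These 2 are 8.7% of the 23, near the 8.32% of all genes tested that were higher, and IKBKB differed by -0.06 in OCI-LY10.

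**Figure D3:**
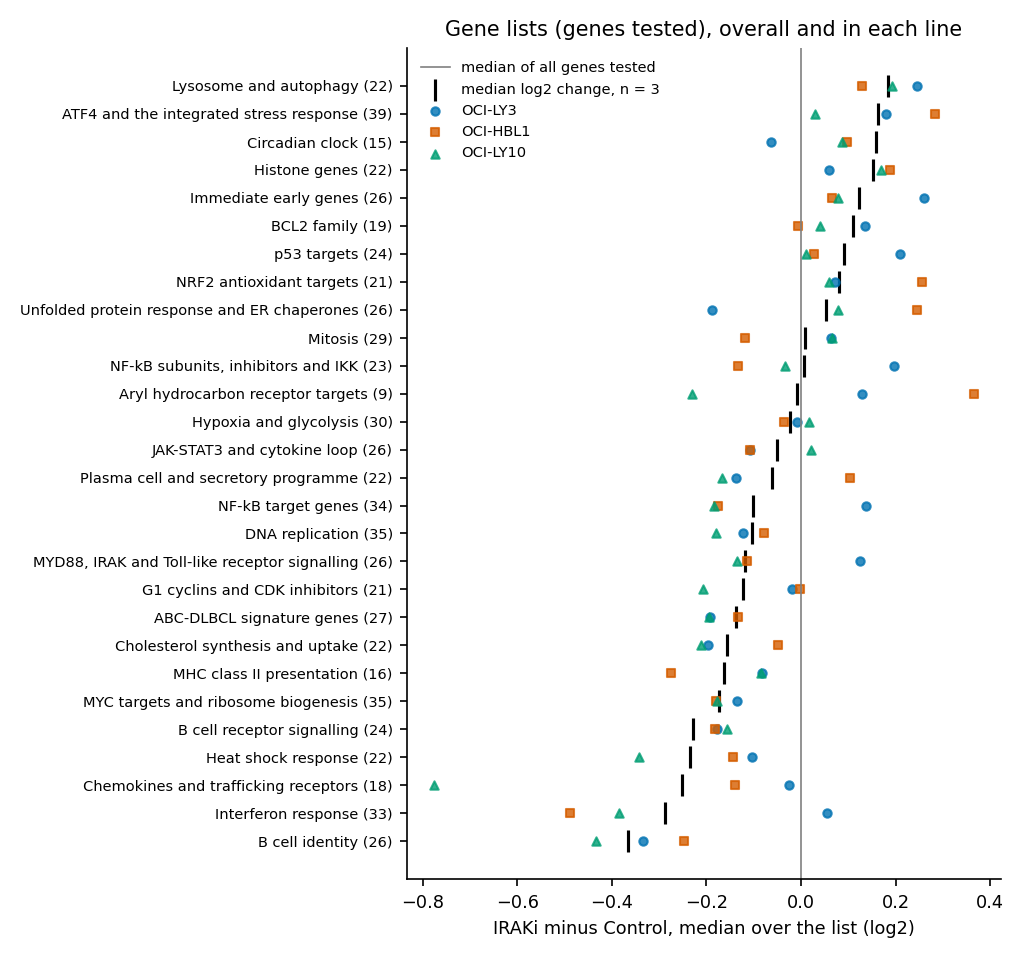
Median IRAKi minus Control (log2) over the genes tested of each of 28 gene lists, with the median of the log2 changes as a bar and the median in each cell line as a point. The list names carry the number of genes tested, and the lists run from lysosome and autophagy at the top (median 0.18) to B cell identity at the bottom (median -0.37).

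Genes that mark B cells lay below 0 by their median. Of 26 B cell identity genes 1 was called, CD24, and 9 were lower and 1 higher at an unadjusted p below 0.05 (34.6% and 3.85%, against 7.08% and 8.32% of all genes tested). The median was -0.37, and by line it was -0.33 (OCI-LY3), -0.25 (OCI-HBL1) and -0.43 (OCI-LY10). Named members were IKZF1, which encodes the lymphoid factor Ikaros (-0.77 ± 0.25, adjusted p = 0.203), CD79B, a signalling chain of the B cell receptor (-0.69 ± 0.21, adjusted p = 0.183), and, in the other direction, FCRL5. The list was not uniform, since MS4A1, PAX5, CD22 and CD74, chosen here after their values were seen, changed by between -0.01 and 0.10.

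Of 24 B cell receptor signalling genes, HSH2D was called, and the median was -0.23. At an unadjusted p below 0.05, 7 were lower and 2 higher (29.2% and 8.33%, against 7.08% and 8.32% of all genes tested). CD72, an inhibitory coreceptor, changed by -0.90 ± 0.32, with -1.85 (OCI-LY3), -0.15 (OCI-HBL1) and -0.72 (OCI-LY10). FCGR2B, the inhibitory Fc receptor of B cells, changed by -0.62 ± 0.19. Among 27 ABC-DLBCL signature genes 3 were called lower, ENTPD1, BMF and CLECL1, against 0.0534% of all genes tested. BMF and CLECL1 entered that list with earlier results of these data known, so the count is not independent evidence. At an unadjusted p below 0.05, 7 of the 27 were lower and 1 higher (25.9% and 3.7%, against 7.08% and 8.32% of all genes tested). The median of the list was -0.14. KCNA3, a lymphocyte potassium channel on the list, changed by -0.71 ± 0.18 (adjusted p = 0.120). IRF4, the factor that ABC-DLBCL cells rely on, changed by -0.07 ± 0.26 and MYC by -0.35 ± 0.21, neither of which passed.

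In the integrated stress response, ATF4 switches on amino acid supply when translation is held back, and 27 of its 39 genes tested were above 0 and 12 below. Of the 39, 0 were called in the default fit, and 5 were higher and 0 lower with trend and robust (1.04% and 0.641% of all genes tested). At an unadjusted p below 0.05, 15 were higher and 0 lower (38.5% higher, against 8.32% of all genes tested). In all 3 lines 19 of the 39 were higher and 2 lower, against 20% and 19.1% of all genes. The median was 0.16, and 0.18 (OCI-LY3), 0.28 (OCI-HBL1) and 0.03 (OCI-LY10). The members below 0 lay between -0.43 (JDP2, a repressor that binds AP-1 sites) and -0.0035 (SLC7A5, an amino acid transporter), and JDP2 and XPOT were below Control in all 3 lines. ATF4 itself stood at 12.91, 13.02 and 13.08 in IRAKi cells and at 12.65, 12.59 and 12.82 in Control cells, with no overlap (0.32 ± 0.10, adjusted p = 0.200).

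SESN2, a sestrin that restrains mTORC1, stood at 7.90, 9.74 and 8.0 in IRAKi cells and at 7.04, 8.78 and 7.15 in Control cells, a difference of 0.85 to 0.97 in every line (0.89 ± 0.18, adjusted p = 0.0855). ASNS, asparagine synthetase, stood at 10.95, 12.44 and 11.53 in IRAKi cells and at 10.41, 12.14 and 11.07 in Control cells (0.44 ± 0.10, adjusted p = 0.106). SLC7A11 stood at 7.40, 8.31 and 7.62 in IRAKi cells and at 6.86, 6.39 and 6.70 in Control cells, with no overlap and the widest gap in OCI-HBL1. CHAC1 changed by 0.73 ± 0.20, DDIT3, the death-linked factor CHOP, by 0.64 ± 0.25 and TRIB3 by 0.45 ± 0.16. The differences in OCI-HBL1 were the largest of the lines for CHAC1 (1.21), DDIT3 (0.92) and TRIB3 (0.74). None of these genes passed the default test.

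The ASNS promoter (RefSeq, GRCh38.p14, chr7:97872359-97872658, minus strand) is shown for its match to the CARE motif, TGATGNAA, to which ATF4 dimers bind, searched on both strands. Capitals mark the match.
ASNS: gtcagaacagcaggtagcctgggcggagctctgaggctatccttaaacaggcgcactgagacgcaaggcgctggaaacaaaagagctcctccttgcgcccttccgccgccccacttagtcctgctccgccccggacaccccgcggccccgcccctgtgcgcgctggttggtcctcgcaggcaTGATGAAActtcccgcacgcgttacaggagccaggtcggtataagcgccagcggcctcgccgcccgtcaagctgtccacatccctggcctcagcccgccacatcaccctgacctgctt
The motif was in 10 of the 35 promoters matched for the list (28.6%), in 3.67% of all promoters of that length and in 1.98% of those of the genes tested.

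Heat shock genes, chaperones under the control of HSF1, leaned the other way. Of 22 members, 0 were called in the default fit, 3 were lower and 0 higher with trend and robust (0.641% and 1.04% of all genes tested), and 13 were lower and 1 higher in all 3 lines (59.1% and 4.55%, against 19.1% and 20% of all genes tested). The median was -0.23. DNAJA1, a cochaperone of HSP70, stood at 11.84, 11.01 and 11.72 in IRAKi cells and at 12.18, 11.78 and 12.38 in Control cells (-0.59 ± 0.13, adjusted p = 0.102). HSPA1B, an inducible HSP70 gene, stood at 6.14, 4.36 and 4.98 in IRAKi cells and at 6.48, 5.43 and 7.27 in Control cells (-1.24 ± 0.32, adjusted p = 0.130). The difference in OCI-LY10 was -2.30, against -0.34 in OCI-LY3 and -1.07 in OCI-HBL1. HSPA1A, also an HSP70 gene on the list, changed by -0.53 ± 0.34 (adjusted p = 0.509). It differed by -1.70 in OCI-LY10 but by 0.05 in OCI-LY3 and 0.08 in OCI-HBL1. DNAJB4 changed by 0.41 ± 0.13 and was above Control in all 3 lines.

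The DNAJA1 promoter (RefSeq, GRCh38.p14, chr9:33025023-33025322, plus strand) held 2 matches to GAANNTTC, the paired unit of the heat shock element, again searched on both strands and capitalised.
DNAJA1: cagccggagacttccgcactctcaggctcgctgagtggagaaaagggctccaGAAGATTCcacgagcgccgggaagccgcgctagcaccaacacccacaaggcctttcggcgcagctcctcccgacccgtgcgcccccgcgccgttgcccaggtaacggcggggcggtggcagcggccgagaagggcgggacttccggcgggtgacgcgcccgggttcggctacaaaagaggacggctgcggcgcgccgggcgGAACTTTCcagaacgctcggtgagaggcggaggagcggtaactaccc
The motif was in 8 of the 19 heat shock promoters matched (42.1%), in 6.87% of all promoters and in 4.97% of those of the genes tested.

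MYC targets and ribosome biogenesis genes lay below 0. Of 35, 0 were called, 11 were lower and 0 higher at an unadjusted p below 0.05 (31.4% lower, against 7.08% of all genes tested), and 21 were lower and 0 higher in all 3 lines (60% lower, against 19.1%). Their median was -0.17, and by line -0.14 (OCI-LY3), -0.18 (OCI-HBL1) and -0.18 (OCI-LY10). WDR43 and UTP4, which process ribosomal RNA, changed by -0.49 ± 0.12 and -0.32 ± 0.10, TCOF1, which promotes its transcription, by -0.47 ± 0.12 and the folate carrier gene SLC19A1 by -0.69 ± 0.19. Lysosome and autophagy genes were on the other side, with 6 of 22 higher and 0 lower at an unadjusted p below 0.05 (27.3% higher, against 8.32% of all genes tested), 11 higher and 0 lower in all 3 lines and a median of 0.18. MAP1LC3B, which coats autophagosomes, changed by 0.67 ± 0.20, the sialidase gene NEU1 by 0.60 ± 0.20 and the cholesterol exporter gene NPC1 by 0.58 ± 0.23. When arrays were scaled to their poly-A spike-ins, which moved the median of all genes tested by -0.23, the medians of the stress response and lysosome lists came to -0.07 and -0.04, so both were above that shifted median though below 0.

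Interferon response genes differed in their median from line to line. Of 33, 0 were called, 7 were lower and 0 higher at an unadjusted p below 0.05 (21.2% lower, against 7.08% of all genes tested), and the median was -0.29. By line it was 0.06 (OCI-LY3), -0.49 (OCI-HBL1) and -0.38 (OCI-LY10). The difference between lines was not tested. IFI35 (-0.73 ± 0.16), OAS1 (-0.66 ± 0.23) and OAS3 (-0.77 ± 0.25) were below Control in all 3 lines, while SAMD9L (-0.60 ± 0.19) was at 0.05 in OCI-LY3. Among the single members of other lists with an adjusted p between 0.0911 and 0.147 were TNFRSF17, the plasma cell receptor BCMA (-1.07 ± 0.29), MZB1, an endoplasmic reticulum protein of B cells (-0.62 ± 0.14), the spindle checkpoint gene BUB3 (-0.57 ± 0.12), the mitotic phosphatase gene CDC25C (0.61 ± 0.14), the clock repressor gene CRY2 (0.83 ± 0.17) and TIGAR, a p53 target that lowers glycolysis (0.54 ± 0.13). None passed the default test.

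The lines were alike only in part over the 13108 genes. The IRAKi minus Control differences of 2 lines correlated across genes at 0.281 (OCI-LY3 and OCI-HBL1), 0.322 (OCI-LY3 and OCI-LY10) and 0.272 (OCI-HBL1 and OCI-LY10), and genes are not independent replicates. Their SD over genes was 0.372 (OCI-LY3), 0.352 (OCI-HBL1) and 0.437 (OCI-LY10). In OCI-LY10, whose IRAKi array stood apart, 359 genes were at least 2-fold lower (2.74%) and 125 at least 2-fold higher (0.954%). In OCI-LY3 the counts were 124 (0.946%) and 116 (0.885%), and in OCI-HBL1 91 (0.694%) and 110 (0.839%). In all 3 lines at once 4 genes were at least 2-fold higher (0.0305%) and 6 at least 2-fold lower (0.0458%).

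The 17 genes that stood furthest apart in 1 line were picked as extremes, and their values describe single arrays, with no test. CCL3, which encodes the chemokine MIP-1 alpha, stood at 4.48, 9.14 and 9.18 in IRAKi cells and at 4.10, 5.71 and 8.52 in Control cells, so its difference was 3.42 in OCI-HBL1 and 0.37 and 0.67 in OCI-LY3 and OCI-LY10. IL6 stood at 8.71, 3.97 and 4.09 in IRAKi cells and at 7.17, 4.20 and 5.71 in Control cells, higher by 1.54 in OCI-LY3 and different by -0.23 in OCI-HBL1 and -1.62 in OCI-LY10. Its OCI-HBL1 and OCI-LY10 IRAKi levels were below the filter level. IL10 differed by 1.27, 0.14 and 0.32 in the 3 lines.

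The interferon-induced chemokine gene CXCL9 stood at 5.60, 3.68 and 5.57 in IRAKi cells and at 8.30, 3.88 and 7.79 in Control cells, so in OCI-HBL1 it was below the filter level in both groups. CX3CL1, encoding fractalkine, stood at 4.53, 4.39 and 4.49 in IRAKi cells and at 4.52, 6.15 and 7.29 in Control cells, and IL12B, a subunit of IL-12 and IL-23, at 9.80, 3.29 and 5.34 in IRAKi cells and 9.79, 3.53 and 7.87 in Control cells. IFIT1, an interferon-induced antiviral protein, differed by -2.41 in OCI-HBL1 and GNA15, a G protein subunit, by -2.13 in OCI-LY3. TRPM2, a cation channel, and CDHR3, a cadherin, differed by -2.82 and -2.65 in OCI-LY10.

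**Figure D4:**
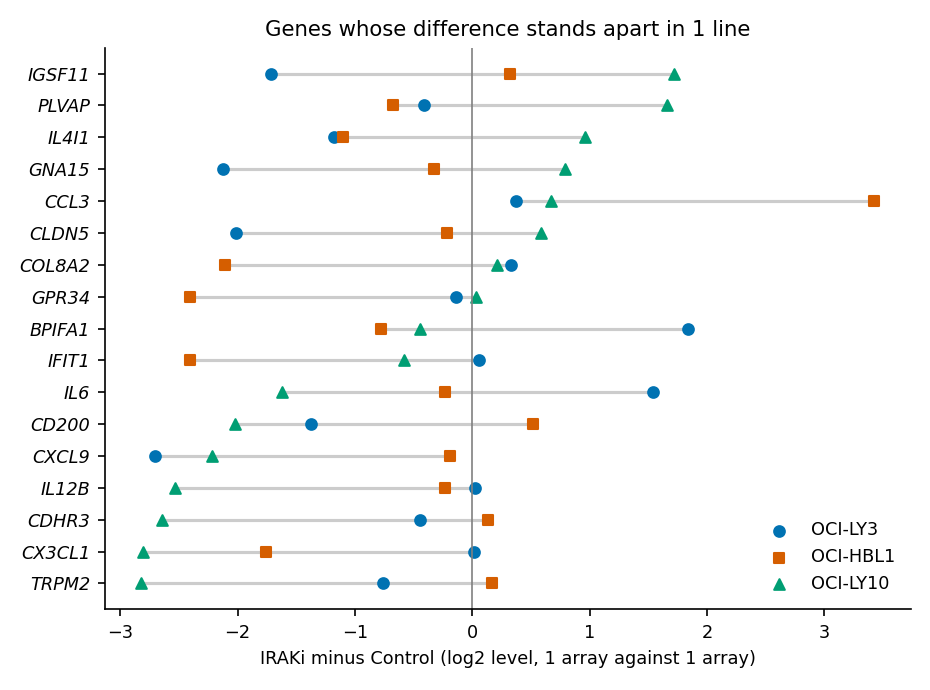
IRAKi minus Control (log2 level, 1 array against 1 array) for the 17 genes whose difference in 1 line lay furthest from the mean of the others, with 1 point for each cell line. CCL3 in OCI-HBL1 is the point furthest to the right, at 3.42, and IL6 lies above 0 in OCI-LY3 and below 0 in OCI-LY10.

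The same compound was also given beside CPI203, and Combo against CPI203 uses 6 other arrays with a matched label time of 24 h. There 612 of 13108 genes passed (4.67%), 257 higher (1.96%) and 355 lower (2.71%). Across all genes the log2 changes of both comparisons correlated at 0.480 (Pearson) and 0.429 (Spearman), a description over genes measured in the same 3 lines and fitted with one estimate of the spread. Of the 22 genes called for IRAKi against Control, 20 had the same sign in Combo against CPI203 (90.9%, against 64% of all genes), 15 were called with that sign and 1 with the opposite sign. Over all 13108 genes, 552 were called there with the sign of their IRAKi against Control change and 60 with the opposite sign.

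BMF changed there by -1.48 ± 0.15 (adjusted p = 0.00504), at 6.17, 5.75 and 5.61 in Combo cells and 7.51, 7.09 and 7.38 in CPI203 cells, again with no overlap. CLECL1 (-0.90 ± 0.11, adjusted p = 0.00803), CD24 (-1.34 ± 0.21, adjusted p = 0.0133), KLHL14 (-1.40 ± 0.27, adjusted p = 0.0240) and HSH2D (-0.67 ± 0.15, adjusted p = 0.0364) also fell. DNHD1 (1.29 ± 0.16), C1S (1.14 ± 0.16), SNORD72 (1.18 ± 0.14) and MCF2 (1.19 ± 0.19) rose, with adjusted p-values between 0.00803 and 0.0151. ENTPD1 did not pass, at 7.58, 8.42 and 7.69 in Combo cells and 7.30, 8.59 and 7.91 in CPI203 cells (-0.04 ± 0.15, adjusted p = 0.931), and its interaction term did not pass either (adjusted p = 0.440). KRABD5 changed by -0.01 ± 0.10.

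CPI203 against Control shares its Control arrays with IRAKi against Control, so its values are given beside the others and not counted against them. In CPI203 cells BMF changed by -0.95 ± 0.15 (adjusted p = 0.00501), ENTPD1 by -1.42 ± 0.15 (adjusted p = 0.00132), KLHL14 by -2.00 ± 0.27 (adjusted p = 0.00289) and DNHD1 by 1.15 ± 0.16 (adjusted p = 0.00359), each with the sign it had in IRAKi cells. C1S changed by 0.47 ± 0.16 (adjusted p = 0.0778) and CD24, with the opposite sign, by 0.42 ± 0.21 (adjusted p = 0.230), and neither passed.

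**Figure D5:**
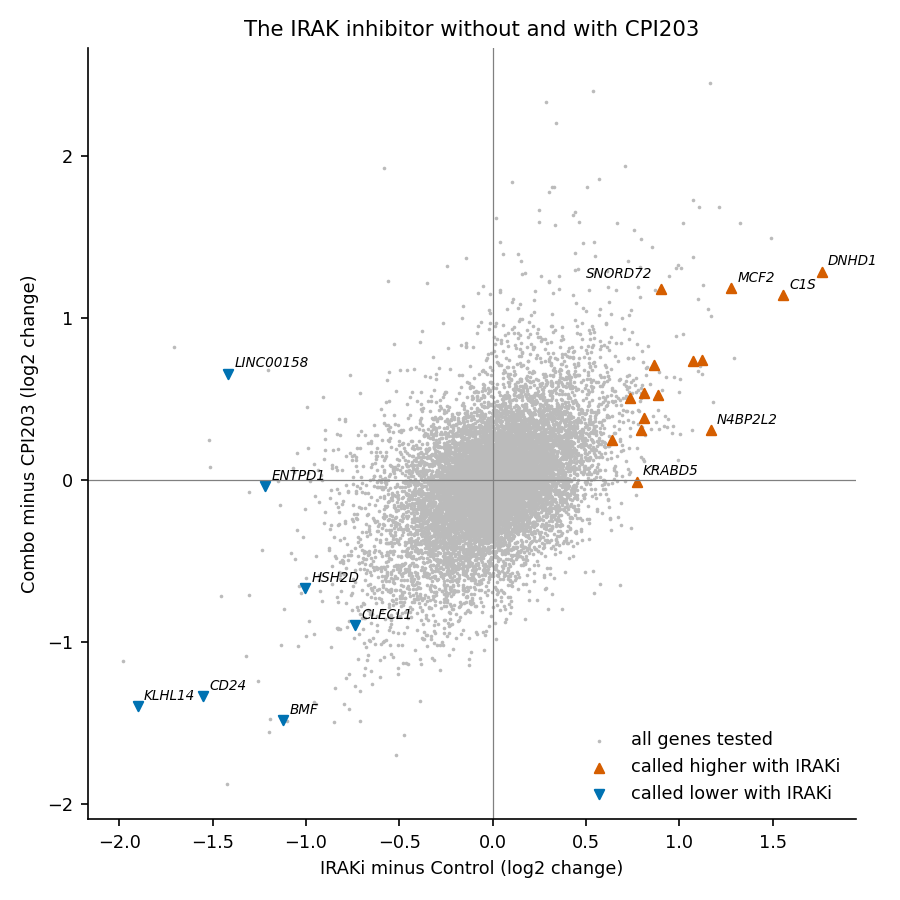
Log2 change for Combo minus CPI203 (vertical) against that for IRAKi minus Control (horizontal), 1 point for each of 13108 genes, with the genes called for IRAKi against Control as upward (higher) and downward (lower) triangles. Of the 22 triangles, 20 lie on the side of their own sign, LINC00158 lies opposite, and KRABD5 is just below 0.

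The interaction term, which tests whether the change with the IRAK inhibitor differed with and without CPI203, called 1 gene (0.00763%; 1084 genes, 8.27%, at an unadjusted p below 0.05). That gene was LINC00158, at 5.21, 5.79 and 4.76 in Combo cells and 4.58, 4.86 and 4.36 in CPI203 cells (0.66 ± 0.15, adjusted p = 0.0425). The difference between its changes was 2.07 ± 0.21 (adjusted p = 0.0366). All 3 IRAKi arrays of LINC00158 lay above all 3 CPI203 arrays. In Control cells it stood at 7.02, 7.02 and 6.86, so its CPI203 levels were far lower and close to the filter level of 4.20. A further fall from such levels could be hard to read, which limits what the interaction term shows for this gene.

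The lists are set beside their values in Combo against CPI203, where 1.96% of all genes tested were called higher and 2.71% lower. MYC and ribosome biogenesis genes had a median of -0.27 with 10 of 35 called lower and 0 higher, and MYC itself fell by 1.03 ± 0.21 (adjusted p = 0.0311). B cell receptor signalling genes had a median of -0.23 with 3 of 24 called lower, the stress response genes 0.10 with 2 of 39 called higher and the lysosome genes 0.14 with 0 of 22 called. Heat shock genes had a median of -0.11 with 1 of 22 called higher and 0 lower. B cell identity genes had a median of 0.04 with 4 of 26 called lower, among them CD79B (-1.16 ± 0.21) and IKZF1 (-1.20 ± 0.25), and interferon genes a median of 0.05 with 1 of 33 called lower. The differences between list medians were not tested.

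Set against CPI203 alone, which shares the IRAKi arrays with the comparison above, 754 genes differed (5.75%), 388 higher in IRAKi cells (2.96%) and 366 lower (2.79%). Of the 22 genes, 7 differed, namely CD24, CLECL1, HSH2D, C1S, PGM2L1, SNORD72 and LINC00158. CD24 was at 6.29, 4.73 and 8.25 in IRAKi cells and at 8.68, 6.27 and 10.23 in CPI203 cells, and CLECL1 was also lower in IRAKi cells in every line. HSH2D was higher in IRAKi cells in every line, at 7.47, 6.64 and 6.06, against 6.21, 5.82 and 4.76 in CPI203 cells. The label times of IRAKi and CPI203 arrays also differ, and treatment and label time cannot be told apart here either.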

How the data were processed

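Total RNA (150 ng, prepared with Trizol) was labelled and hybridised to Affymetrix arrays, per the labels' protocols. The deposited values are log2 levels of 49386 probe sets on 12 arrays, made by the authors with RMA in Affymetrix Expression Console 1.1, per the submitters' processing notes. RMA corrects background, quantile-normalises the arrays and summarises probes, so a shift common to all genes is removed. The sources used here name neither the probe library nor the genome build.

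Of the probe sets, 45253 carried 1 gene in the platform annotation, 1327 several and 2713 none, and 93 were controls. After symbols were updated through RefSeq (99.98% matched), the probe set with the highest mean stood for each of 18209 genes. Of these, 13108 exceeded the 40th percentile (a log2 level of 4.20) on at least 3 arrays and were tested, and 5101 were not. The s_at (2336) and x_at (1721) suffixes among those chosen mark probes shared between transcripts. The number of arrays limits the precision.

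All 12 arrays were fitted with limma 3.58.1 in R 4.3.3 (lmFit, contrasts.fit, eBayes), with treatment and cell line as terms, 6 residual and 3.66 prior degrees of freedom. Tests were two-sided, with Benjamini-Hochberg adjustment over all genes tested. The cell line pairs the arrays by the labels. Deviations of the IRAKi and Control arrays from their group means correlated at 0.883 to 0.907 within a line and at -0.500 to -0.384 between lines. Each group was centred on its own mean, so high values within a line force negative values between lines. The latter are not separate evidence of the pairing. In data with planted changes, the IRAKi against Control test called 25.37%, 67.16% and 98.48% of genes moved by 0.5, 1 and 2 on the log2 scale, with 6 unmoved genes called. For the interaction term the shares were 2.985%, 43.28% and 84.85%, with 4 unmoved genes called. Each run planted 200 changes, against 22 genes and 1 gene called in the data, with noise drawn independently for each gene. The adjusted cutoff loosens as more genes pass, so these shares may overstate what the real comparisons could call.

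The comparisons, the 28 gene lists, the promoters shown and the genes named were chosen with earlier results of these data known. Named genes are all those called, the 10 highest and 10 lowest called with trend and robust alone (the first 5 of each are printed), up to 4 members a list with the smallest p, the genes called in the interaction term, 3 genes a line that stand apart each way, and a fixed set of pathway genes. Lists are described by counts and medians. Promoter sequences are RefSeq's (GRCh38.p14). Alternatives are given in the closing section.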

Additional observations from a re-analysis of the deposited data

Results flagged for a closer look

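LINC00158 was the single gene whose change with the IRAK inhibitor differed with and without CPI203 by a test of the difference itself. Its log2 change was 0.66 ± 0.15 for Combo against CPI203 and -1.42 ± 0.15 for IRAKi against Control, a difference of 2.07 ± 0.21 (limma interaction term, adjusted p = 0.0366, n = 3 lines). Every line showed both directions. Its CPI203 levels, given above, were close to the filter level of 4.20, so a further fall there could be hard to read. With any 1 cell line left out, the interaction term called 0 genes.

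The array's non-specific control probe sets, which enter no comparison, averaged 4.00 on the OCI-LY10 IRAKi array, above the 3.64 to 3.79 of the other 11 arrays. Relative to the Control array of the line they differed by 0.29 in OCI-LY10, -0.04 in OCI-LY3 and -0.06 in OCI-HBL1. The same line had the most genes at least 2-fold below Control, 359, against 124 in OCI-LY3 and 91 in OCI-HBL1. Their part in that count was not tested.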

How the results depend on the processing

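The 22 genes called between IRAKi and Control became 12 with a change of at least 2-fold required, 13 with a gene's probe sets averaged (7 of them among the 22), 66 with a filter at the 60th percentile, 220 with trend and robust, 11 with cell line as a random replicate block, and 0 with only the 2 groups compared in the fit (1995 at an unadjusted p below 0.05) or with no replicate block (296). Leaving out any 1 line gave 0 (1225 to 1791 at an unadjusted p below 0.05), as did leaving out the OCI-LY10 IRAKi array. Testing every probe set, no filter, median centring, cyclic loess, poly-A scaling and array weights gave 20 to 31. No called gene changed sign under any alternative that was run.

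For Combo against CPI203 the 612 genes became 135 with at least 2-fold required, 1038 with every probe set, 954 with trend and robust, 200 with only the groups compared, 2 with no replicate block, 0 to 3 with 1 line left out and 519 without the OCI-LY10 IRAKi array. For IRAKi against CPI203 the 754 became 147, 1602, 183 and 0 with at least 2-fold, every probe set, only the groups compared and no replicate block. They became 266 with poly-A scaling, 1184 with array weights, 470 with a random replicate block, 0 to 9 with 1 line left out and 130 without the OCI-LY10 IRAKi array. The 1 gene of the interaction term became 0 with every probe set, with no replicate block, with 1 line left out and without the OCI-LY10 IRAKi array, and no fit of fewer groups gives it a value.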
